A study of Homo sapiens with 6 samples.

Results

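In A-375 cells, 759 GABPA peaks at the ends of 757 protein-coding genes were present in both control lists and had no overlapping peak in the list from cells with a B1 knockout. Each of these 759 peaks was a parental peak overlapped by at least 1 bp by a ROSA26 peak and by no knockout peak. Its summit, the position of highest signal, lay within 1 kb of an end of exactly 1 protein-coding gene span in RefSeq (chromosomes 1 to 22 and X). The parental list holds 3024 peaks, of which 2969 were shared with ROSA26, and 1748 of those lay near a single gene. The missing peaks were therefore 43.4% of the single-gene control-shared peaks (95% Clopper-Pearson interval 41.1 to 45.8), and 989 such peaks were kept. The share without a knockout peak was 45.2% over all 2969 control-shared peaks, so the single-gene promoters stood near the background. Presence or absence in the knockout list chose the members, and it is described here and not tested.

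A-375 is an established human melanoma line. The parental cells carried no knockout. The ROSA26 control is a clone knocked out at ROSA26, a site that is often targeted because it is held to be neutral. In the other edited line, exon 2 of the GABP subunit B1 was knocked out and TERT, the catalytic subunit of telomerase, was then knocked in, and this line is called the knockout below. Per the labels' protocols, edited cells were sorted and grown as clones, and chromatin was recovered with an antibody to GABPA. There was 1 ChIP library per condition, so no difference below has a replicate check, and the B1 knockout, the TERT knock-in and the clone cannot be told apart. Nor can fewer cells with a peak be told apart from less GABPA per cell. No control-shared single-gene peak lay at any of the 15 melanocyte lineage genes listed, and 1, which was kept, lay at the 17 genes of other skin cell types. A peak does not measure expression, so these lists do not check the labelled cell type.

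GABP is a transcription factor of unlike subunits: GABPA recognises DNA through its ETS domain, and a B subunit brings the activation domain. The B subunits, encoded by GABPB1 and GABPB2, also join GABPA units, so that one complex can occupy neighbouring ETS motifs. GABP is known for binding promoters of housekeeping genes, among them genes for mitochondria, ribosomes and basal transcription. An ETS motif has the core GGAA, and GABPA favours it within CCGGAAG.

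The sequences below show how the motif lay at 7 missing peaks, beside 2 of the 4 strongest kept peaks. They are from RefSeq on GRCh38.p14, which has the coordinates of hg38, and each runs 5′ to 3′ on the strand of its gene. Capitals mark the ETS core CGGAAG with the preceding C where present, or its reverse complement. The stretches lie before the gene start, except for CHCHD5, where only the site is shown. ASXL1, coding for a chromatin regulator, is at chr20:32358176-32358275, plus strand. ZNF12, coding for a zinc finger protein, is at chr7:6706960-6707059, minus strand. TAF1, coding for the largest subunit of TFIID, is at chrX:71366198-71366297, plus strand. CHCHD5, coding for a mitochondrial protein, is at chr2:112584464-112584493, plus strand. PSMD12, coding for a proteasome subunit, is at chr17:67366578-67366677, minus strand. NSUN5, coding for an rRNA methyltransferase, is at chr7:73308832-73308931, minus strand. USP11, coding for a deubiquitinase, is at chrX:47232909-47233008, plus strand. The kept peaks are those of MRPS31, a mitochondrial ribosome gene, at chr13:40771191-40771290, minus strand, and SF3A3, a splicing factor gene, at chr1:37990034-37990133, minus strand.
ASXL1: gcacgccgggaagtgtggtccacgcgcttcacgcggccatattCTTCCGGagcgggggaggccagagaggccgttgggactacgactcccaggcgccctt
ZNF12: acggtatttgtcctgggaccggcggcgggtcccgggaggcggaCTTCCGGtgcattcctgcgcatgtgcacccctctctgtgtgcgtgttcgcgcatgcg
TAF1: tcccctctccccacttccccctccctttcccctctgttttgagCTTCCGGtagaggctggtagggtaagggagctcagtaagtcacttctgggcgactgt
CHCHD5: gacgagccgggCCGGAAGaagaggtagggc
PSMD12: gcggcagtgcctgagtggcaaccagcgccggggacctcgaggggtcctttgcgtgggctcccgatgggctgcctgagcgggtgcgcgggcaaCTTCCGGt
NSUN5: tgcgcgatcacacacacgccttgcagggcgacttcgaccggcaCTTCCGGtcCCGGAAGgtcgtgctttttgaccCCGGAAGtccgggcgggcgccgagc
USP11: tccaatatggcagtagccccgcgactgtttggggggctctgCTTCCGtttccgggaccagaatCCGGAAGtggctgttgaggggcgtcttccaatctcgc
MRPS31 (kept): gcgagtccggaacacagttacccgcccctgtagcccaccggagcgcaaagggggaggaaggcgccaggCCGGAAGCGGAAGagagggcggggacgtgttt
SF3A3 (kept): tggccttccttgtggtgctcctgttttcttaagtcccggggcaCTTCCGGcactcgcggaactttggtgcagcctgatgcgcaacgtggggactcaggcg
The missing peak of NSUN5, which is among the members with the most copies, had 3 of CCGGAAG, more than either kept example. Other kept peaks had more, such as ZNF384 and NR1H2 with 4 each. At least 2 copies were in 6.75% of missing and 20.6% of kept windows. At ZNF12 the nearest motif lay 7 bp from the parental summit, at CHCHD5 4 bp and at USP11 9 bp, and at ASXL1 and TAF1 it lay 48 and 65 bp away. At the kept peaks of MRPS31 and SF3A3 the distances were 18 and 12 bp. A match is a description of the sequence and not a measured binding site.

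The missing peaks were mostly the weaker ones in both controls. Fold enrichment is the authors' value per peak, the signal at the summit over the local background, and it was used only within its own list. The parental fold had a median of 4.31 at the missing and 9.06 at the kept peaks. The 1748 peaks were divided by parental fold into 4 classes of 437 peaks, class 1 the weakest. In class 1 (fold 2.05 to 4.47) 407 peaks had no knockout peak, or 93.1% (90.3 to 95.3). In class 2 (4.48 to 6.71) 58.8% had none (54.0 to 63.5), in class 3 (6.71 to 9.59) 19.2% (15.6 to 23.2), and in class 4 (9.59 to 23.64) 11 peaks or 2.52% (1.26 to 4.46). Of the peaks below the median fold of 6.71, 76.0% were missing, against 10.9% at or above it. The ROSA26 values, of which the rule used only the overlap, gave the same order. The median missing peak stood at the 43.6th percentile of the ROSA26 list by fold, and the median kept peak at the 78.5th. Within class 2 the percentiles were 51.5 and 59.0, and within class 3 65.9 and 73.5.

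**Figure D1:**
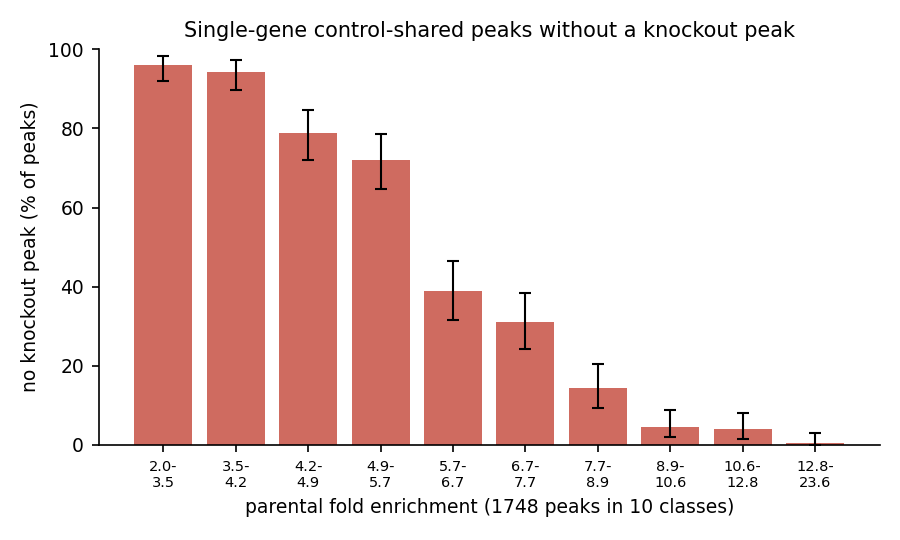
Share of single-gene control-shared peaks without a knockout peak (y axis, percent) in 10 classes of parental fold (x axis, fold range of each class). Bars are shares and lines are 95% Clopper-Pearson intervals, and the share was 96.0% in the weakest class and 0.571% in the strongest.

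Reads at each summit were recovered from the fold and the −log10 p-value of the deposited lists. The missing peaks had a median of 91 parental reads (45 to 284), and the kept peaks 191 (67 to 507). In the ROSA26 library the medians were 106 and 221 reads. The knockout library was shallower: the most frequent local background of its peaks was 9.86 reads, against 15.4 for parental and 14.2 for ROSA26. This is a single value for each list, and the local background differed between peaks. At the kept peaks the knockout summit held a median of 46.2% of the parental reads (10th to 90th percentile 32.9% to 62.8%). The most frequent background of the knockout list was 64.0% of that of the parental list. That ratio describes the lists as wholes, and the local backgrounds at the kept peaks themselves were not compared. Depth is a property of the whole library, and its part in the missing calls was not tested beyond the scaling that follows.

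To set the members at the knockout depth, the parental reads were scaled by the ratio of the most frequent backgrounds, knockout over parental. This factor was 64.0%, above the share of parental reads that most kept peaks held in the knockout (median 46.2%, 90th percentile 62.8%). The scaled values are thus high beside the kept peaks, and they are not values that the knockout library should have shown. So scaled, 535 of the 759 missing peaks (70.5%) had a −log10 p at or above 13.6, the 10th percentile of the listed knockout peaks. Of the 989 kept peaks, 986 (99.7%) did. At or above the knockout median of 34.2 there were 122 missing peaks (16.1%) and 865 kept peaks (87.5%). Of the 122, 120 also passed that median from their ROSA26 values. In the other direction, 78 missing peaks were below the 10th percentile from both controls; these are the peaks whose absence the knockout depth could least show. With each list limited to as many of its strongest peaks as the knockout list holds, 118 of 959 single-gene control-shared peaks were missing (12.3%). These 959 were divided anew by parental fold into 4 classes, which are not the classes above. Of the weakest 240 peaks 29.2% were missing, and of the strongest 240 1.25%.

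**Figure D2:**
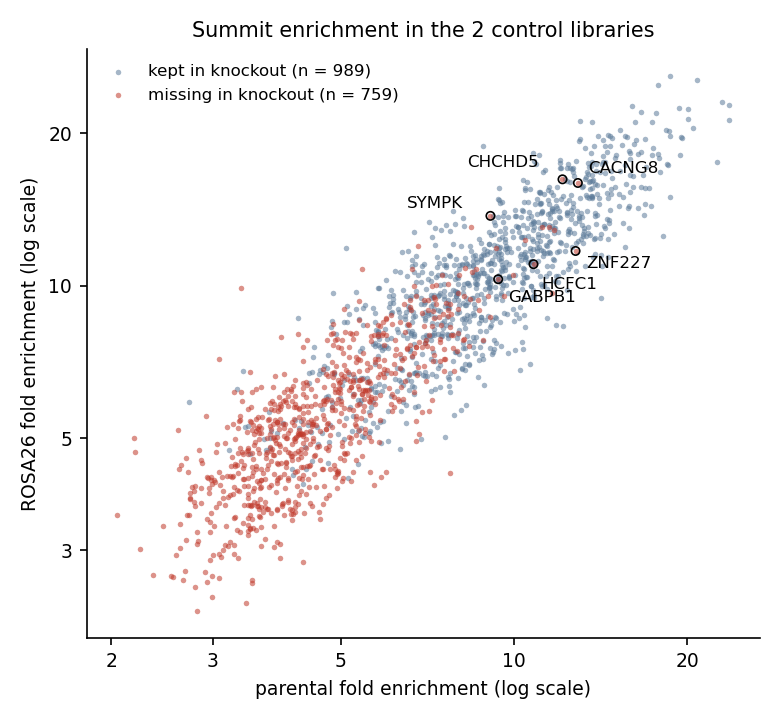
Fold enrichment of the 1748 single-gene control-shared peaks in the parental (x axis) and ROSA26 (y axis) libraries, both on log scales. Each point is 1 peak, red where missing in the knockout and blue where kept; 6 strong missing peaks are named and lie among the kept peaks.

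The strongest missing peaks were few, and they lay among kept peaks of the same enrichment in both controls. With a parental fold of 10 or more there were 9 missing and 396 kept peaks. CACNG8, coding for an auxiliary subunit of AMPA receptors, had the strongest one, with a fold of 12.91 and 284 reads in the parental and 15.96 and 249 reads in the ROSA26 library. Its summit lay 878 bp outside the gene span, farther out than most. CHCHD5 had 200 parental and 246 ROSA26 reads, with folds of 12.14 and 16.23, and its summit lay 35 bp inside the span. ASXL1 had 209 and 263 reads with folds of 11.49 and 13.04. At these 3 promoters each control had at least 200 reads, and the knockout list no peak. HCFC1, coding for a transcriptional coregulator, had 178 and 192 reads (folds 10.81 and 11.03), with a summit 570 bp inside the span. RPS19, coding for a protein of the small ribosomal subunit, had 233 and 262 reads (folds 9.59 and 9.54), 442 bp from the gene end. The summits of HCFC1, RPS19 and CACNG8 thus lay well away from the annotated end.

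Other members among the 20 strongest had various roles. SYMPK, a scaffold protein of mRNA 3′ end processing, had 224 and 249 reads and folds of 9.1 and 13.74. TCOF1, a nucleolar protein of rRNA transcription, had 185 and 206 reads (9.1 and 8.66). TAF1 had 148 and 157 reads (9.0 and 9.53). ACBD3, a Golgi protein, had 220 and 229 reads, TRIM4, an E3 ubiquitin ligase, 204 and 238, and ULK4, a pseudokinase, 183 and 140. In the strongest ROSA26 values CHCHD5, CACNG8, SYMPK, CCZ1B and ASXL1 led.

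GABPB1, the gene that codes for the B1 subunit and that was edited in this line, had a missing peak of its own. It held 175 parental and 217 ROSA26 reads, with folds of 9.39 and 10.3, and the summit lay 281 bp inside the gene span. GABPB2, which codes for the other B subunit, also had a missing peak, a weak one of 69 and 95 reads (folds 2.74 and 3.78) 7 bp from the gene end. GABPB1 thus belonged to class 3, where 19.2% of peaks were missing, and GABPB2 to class 1, where 93.1% were. In the list of GABP subunits and ETS family genes 3 genes had a control-shared single-gene peak, and 1 of these was kept.

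At the other end of the range, the weakest members were those of PABPC1L (parental fold 2.05, 75 reads, and ROSA26 fold 3.52, 96 reads), PSMC6 (2.19 and 60, and 4.99 and 75) and RPL26 (2.2 and 73, and 4.71 and 95). At these 3 promoters scaled −log10 p from the parental library was 5.3, 5.0 and 6.0, below the 13.6 given above. DIAPH1 and MUS81 each had 2 missing peaks, and ZNF580 had a missing and a kept one. Only 4 members had a knockout peak within 1 kb, the closest at PSMB1 (0.397 kb), MAF1 (0.559 kb) and CCDC106 (0.749 kb), and 32 had one within 10 kb. The median distance to the nearest knockout peak was 272 kb. Most members thus had no knockout peak in their neighbourhood. Just inside the 1 kb limit were the peaks of BSN (993 bp, folds 5.17 and 5.72) and GAPDH (972 bp, 3.45 and 3.88), and just outside were OXSR1 (1020 bp, 3.58 and 4.28) and GATAD1 (1029 bp, 4.15 and 2.96).

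Missing peaks lay farther from the gene end than kept ones. The median distance was 81 bp at the missing and 48 bp at the kept peaks, and 74.4% (71.2 to 77.5) and 86.0% (83.7 to 88.1) were within 200 bp. Position within the 1 kb was not used by the rule. In class 3 of fold, where the median folds were 7.43 and 8.16, 60 of 84 missing peaks (71.4%, 60.5 to 80.8) and 301 of 353 kept peaks (85.3%, 81.1 to 88.8) were within 200 bp. In class 2 the shares were 76.3% (70.6 to 81.3) and 84.4% (78.3 to 89.4), and these intervals overlapped. The promoter table gives 300 bases per gene start, 250 before it and 50 from it on, and 637 missing and 846 kept peaks had a window of their gene in it. Of those, 160 missing peaks (25.1%, 21.8 to 28.7) had the summit in the 50 bp before the start, against 355 kept peaks (42.0%, 38.6 to 45.4). In class 3 the shares were 26.0% (16.5 to 37.6) and 43.4% (37.7 to 49.2). In class 2 they were 27.2% (21.4 to 33.7) and 33.5% (26.2 to 41.6), which overlap, and in class 1 24% and 21.7%, with the missing share the larger. Only 13 of the 637 missing peaks were nearer to the other end of the gene span, and 493 (77.4%) had the summit inside the window. The name promoter peaks thus held for most of those with a window. Some summits, such as those of RB1, ZNF227 and BSN, lay more than 1 kb from the nearest listed start. The summits of the 2 controls lay a median of 21 bp apart at missing and 15 bp apart at kept peaks, which is small beside these distances.

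**Figure D3:**
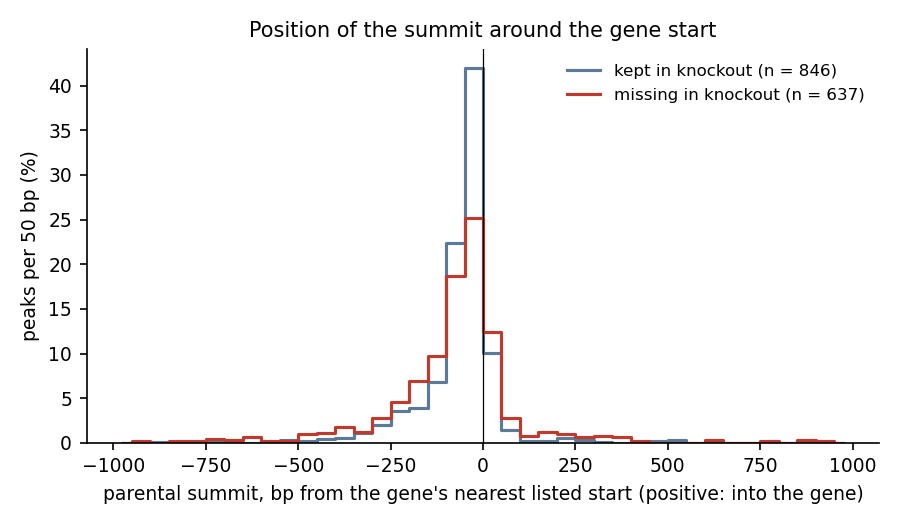
Position of the parental summit around the nearest listed start of its gene (x axis, bp, positive into the gene) for missing (red) and kept (blue) single-gene control-shared peaks; the y axis is the percent of peaks per 50 bp. Both peak in the 50 bp before the start, which held 25.1% of missing and 42.0% of kept summits.

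The ETS motif was more common in windows of missing peaks than among promoters at large, and less common than in windows of kept peaks. CCGGAAG, read on both strands, occurred in 292 of 637 missing windows (45.8%, 41.9 to 49.8), in 64.9% of kept windows (61.6 to 68.1) and in 12.8% of all 22132 coding-gene windows of the same length. At matched enrichment the gap between missing and kept was smaller. In class 2 of fold the shares were 48.4% and 51.6%, and in class 3 53.4% (41.4 to 65.2) and 63.2% (57.5 to 68.7), with overlapping intervals. In class 1 the order was reversed, with 42.5% of missing (37.2 to 47.9) and 34.8% of kept windows (16.4 to 57.3). Among peaks with the summit inside the window, a restriction chosen after seeing the data, the class 3 shares were 66.7% and 67.4%. In these windows the presence of CCGGAAG thus set missing and kept peaks of like enrichment apart by less than the intervals.

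The longer form CCGGAAGT, which contains CCGGAAG, gave a gap of about the same size over all classes. It was in 19.6% of missing (16.6 to 22.9), 39.7% of kept (36.4 to 43.1) and 5.35% of all windows. In class 3 20.5% of missing windows held it (12 to 31.6) and 36.1% of kept ones (30.7 to 41.8). In class 2 the shares were 26.3% and 31.6%. In class 1 the order was reversed, with 15.3% of missing (11.7 to 19.6) and 8.70% of kept windows (1.07 to 28.0). The intervals overlapped within each of these classes. The core CGGAAG, which lies within both longer forms, was in 65.0% of missing, 81.7% of kept and 23.7% of all windows.

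**Figure D4:**
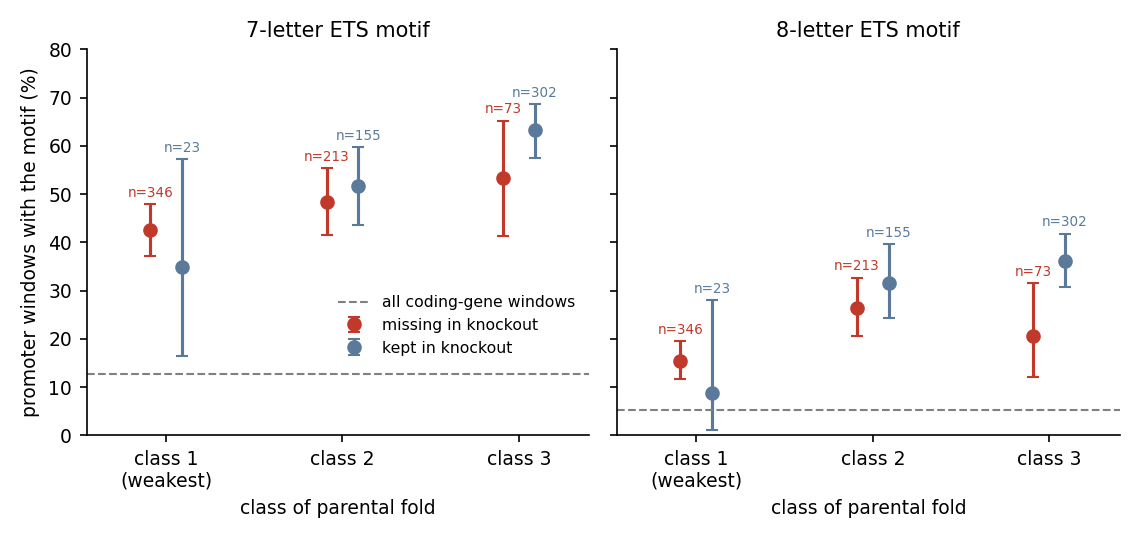
Share of promoter windows with the ETS motif (y axis, percent) for missing (red) and kept (blue) peaks in the 3 lower classes of parental fold (x axis), for the motifs CCGGAAG (left) and CCGGAAGT (right). Points are shares, lines 95% Clopper-Pearson intervals, the dashed line all coding-gene windows; the intervals of missing and kept overlap in each panel and class.

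Because the B subunits join GABPA units, windows with more than 1 motif were counted. At least 2 copies of CGGAAG were in 149 missing windows (23.4%, 20.2 to 26.9), in 44.3% of kept windows (40.9 to 47.7) and in 6.42% of all windows. At least 2 copies of CCGGAAG were in 6.75% of missing, 20.6% of kept and 2.29% of all windows. Within each of classes 1 to 3 of fold the intervals of missing and kept windows overlapped for both motifs. In class 3 at least 2 copies of CGGAAG were in 38.4% of missing (27.2 to 50.5) and 38.7% of kept windows (33.2 to 44.5), and in class 2 in 24.9% and 27.1%. For CCGGAAG the class 3 shares were 16.4% of missing and 15.2% of kept windows. With each list at the length of the knockout list, at least 2 copies of CGGAAG were in 36.8% of missing (27.2 to 47.4) and 47.7% of kept windows (44.0 to 51.4). Neighbouring CGGAAG cores lay a median of 54 bp apart over 178 pairs in missing windows, and 36 bp apart over 535 pairs in kept windows. Pairs 13 to 24 bp apart made up 14% (9.30 to 20.0) and 23.2% (19.7 to 27.0). Those 20 to 21 bp apart, about 2 turns of the DNA helix, made up 2.81% (0.918 to 6.43) and 6.73% (4.76 to 9.19). In both cases the intervals overlapped. At 6 bp the shares were 4.49% and 5.42%, and at 14 bp 0% (0 to 2.05) and 3.74% (2.30 to 5.71). Spacing was not divided by class of fold, and kept windows with pairs held more of them each. Whether spacing differs at like fold or like number of copies was thus not tested. Pairs from the same window were counted as independent, so these intervals may be too narrow. The share of peaks that were missing fell with the number of CCGGAAG copies, from 53.7% without one to 39.9% with 1 and 19.8% with at least 2. The parental fold moved with that number, with medians of 5.6, 7.03 and 10.16. Among peaks at or above the median fold the shares were 14.8% (10.6 to 19.9), 9.06% (6.20 to 12.7) and 6.98% (3.66 to 11.9), and below it 77.4%, 74.7% and 68.9%. Motif number and enrichment thus moved together, and within each range of fold the intervals overlapped.

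Some promoters with many copies were missing all the same. NSUN5 with 3 copies of CCGGAAG had 165 parental and 192 ROSA26 reads (folds 6.81 and 12.01) and no knockout peak. FBXL12, a substrate adaptor of a ubiquitin ligase, also had 3 copies, with 143 and 135 reads, but its summit lay 260 bp into the gene and outside the window. IGBP1, a regulator of phosphatases, had 3 copies with 94 and 121 reads. The strongest members without a copy in their window were ZNF227, RPS19 and GABPB1, and at all 3 the summit lay outside that window.

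Where missing windows held CCGGAAG and the summit, the motif lay close to the summit, as in kept ones. The nearest copy was a median of 18 bp from the summit, with 63.1% within 25 bp, against 16 bp and 70.0% at kept peaks. CCAAT, a box bound by NF-Y, lay a median of 54 bp away at missing and 57 bp at kept peaks. CCAAT was in 42.7% of missing (38.8 to 46.6), 36.5% of kept (33.3 to 39.9) and 34.6% of all windows. That order did not hold within each class of fold. The missing and kept shares were 43.9% and 52.2% in class 1, 39.9% and 45.2% in class 2, and 45.2% and 38.1% in class 3. These intervals overlapped in each class, as they did for GGGCGG below. GGGCGG, a GC box bound by SP1, was in 70.8%, 66.7% and 56.3%, and at least 2 copies were in 43.8% (39.9 to 47.8), 33.5% (30.3 to 36.7) and 34.9%. Median GC content was 63.7% at missing and 62.3% at kept peaks, and the CpG ratio, observed over expected, 0.872 and 0.861, against 0.738 in all windows. The other motifs searched were each in under 5% of missing windows.

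By function, the members were spread over many groups of genes. Of the 757 member genes, 237 were in at least 1 of 37 gene lists, and the share missing over all single-gene control-shared peaks was 43.4%. For each list, the number missing is given with the number that the shares missing in the 4 classes of fold would give for its peaks.

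Zinc finger genes were the most numerous group, with 84 missing and 83 kept peaks, against 74.2 from the class shares. ZNF227 had the strongest of them (260 parental and 285 ROSA26 reads, folds 12.79 and 11.72). ZNF233 had 232 and 221 reads (11.65 and 9.66). ZNF780B had 186 in each control (8.67 and 9.39), and ZNF497 164 and 193 (8.59 and 10.78). Most zinc finger genes code for repressors that bind DNA, and they lie in clusters of similar sequence, so that reads of close copies may have been placed uncertainly. On chromosome 19, where many of them lie, 84 of 204 single-gene control-shared peaks of any gene were missing (41.2%). The class shares gave 83.3. This is not the same set as the 84 zinc finger peaks, since it holds CACNG8 and not ZNF12.

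Genes of DNA replication had 7 missing and 2 kept peaks, against 5.8 from the class shares. MCM10, needed to start replication forks, had 104 and 127 reads (folds 6.35 and 7.32), and POLA1, the catalytic subunit of DNA polymerase alpha, 95 and 120 (5.8 and 7.95). RFC4, RPA2, ORC2, GINS2 and MCM3 were the others. These 7 were all below the median fold, where 76.0% of all peaks were missing. Cell cycle genes had 9 missing and 5 kept peaks, against 7.5. Among them RB1, the retinoblastoma protein, had 123 and 145 reads (6.46 and 7.21), and CDK7, the kinase of TFIIH, 138 and 135 (5.81 and 6.61). DNA repair genes had 11 missing and 13 kept peaks, against 11.9, led by ERCC5, a nuclease of excision repair (178 and 131 reads), and XRCC5, the larger Ku subunit (126 and 135 reads). The telomere list had 5 missing and 4 kept peaks, against 5.7, with TINF2, a shelterin protein (87 and 116 reads), and STN1, a subunit of the CST complex (83 and 83 reads).

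In lists of translation the numbers missing lay near those of the class shares. Cytosolic ribosome genes had 15 missing and 28 kept peaks, against 15.5 from the class shares, and RPL19 (157 and 178 reads, folds 6.48 and 6.49) came after RPS19. Mitochondrial ribosome genes had 4 missing and 13 kept peaks, against 6.2, among them MRPS33 (160 and 192 reads, 8.16 and 7.8) and MRPL12 (90 and 114 reads). Ribosome biogenesis had 5 missing and 23 kept, against 5.3. There SBDS, which helps to release a factor from the large subunit, had 151 and 176 reads, and LTV1, a factor of the small subunit, 119 and 110. Initiation factors had 6 missing and 6 kept, against 5.2, led by EIF3D (111 and 128 reads) and EIF1 (118 and 130 reads). Aminoacyl-tRNA synthetases had 5 and 6, against 5.0, with QARS1 (104 and 81 reads) and NARS1 (82 and 105 reads). In the list of tRNA and rRNA modification 8 were missing and 14 kept, against 9.7, with NSUN5 first and TRMT10B, a tRNA methyltransferase, second (106 and 125 reads). In none of these 6 lists did the number missing differ from that of the class shares by more than 3 peaks.

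In lists of RNA processing and transcription most peaks were kept, as over all single-gene control-shared peaks. The numbers missing lay mostly below those of the class shares, but not for the general transcription factors. The spliceosome had 7 missing and 16 kept, against 8.6, with SF3B1, the branch point protein of the U2 particle (107 and 117 reads), and CWC25 (122 and 134 reads). General transcription factors had 5 missing and 11 kept, against 4.2, with TAF1 and with TAF1B, a factor of RNA polymerase I (134 and 149 reads). Mediator genes had 3 missing and 7 kept, against 3.5. The DEAD and DEAH helicases, which remodel RNA, had 1 missing peak, at DHX34 (106 and 136 reads, folds 4.01 and 5.32), and 15 kept, against 4.1. Genes of mitochondrial DNA expression had 1 missing, at TBRG4 (141 and 185 reads, 6.44 and 9.19), and 11 kept, against 1.9. The 4 Integrator and 6 nuclear pore genes with a control-shared single-gene peak had none missing, against 1.4 and 1.6. DHX34 and TBRG4 are named here because each was the only missing gene of its list. The same held for POLR2G among the RNA polymerases (1 missing and 5 kept, against 2.2). It also held for WDR31 among the WD repeat genes (1 missing and 9 kept, against 2.8).

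Protein turnover and transport lists varied around the class shares. The proteasome had 7 missing and 13 kept peaks, against 7.0, with PSMD12 (166 and 170 reads, folds 7.97 and 7.44) and PSMB1 (91 and 102 reads). The USP deubiquitinases had 6 missing and 1 kept, against 4.4, with USP5 (164 and 189 reads, 7.98 and 8.98) and USP11 (129 and 136 reads, 6.59 and 8.36). The mitochondrial carriers had 5 missing and 2 kept, against 5.0, led by SLC25A38 (79 and 65 reads) and SLC25A14 (62 and 80 reads). Mitochondrial protein import had 4 missing and 7 kept, against 3.6, with MTX2 (109 and 128 reads) and PMPCB, a subunit of the processing peptidase (112 and 142 reads). Vacuolar protein sorting genes had 5 and 7, against 5.4, with VPS37C (99 and 124 reads) and VPS33B (124 and 155 reads). TMEM genes, grouped by symbol alone, had 11 missing and 8 kept, against 8.3, led by TMEM102 (153 and 205 reads) and TMEM184C (112 and 117 reads). CCDC genes, likewise, had 5 and 11, against 8.1, led by CCDC39 (111 and 144 reads) and CCDC150 (71 and 53 reads). These lists hold few peaks, and no test of the differences was made.

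Along the chromosomes, the longest run of strong missing peaks was on chromosome 7. Among single-gene peaks at or above the median fold, 4 neighbours were missing in a row (CCZ1, ZDHHC4, ZNF12 and CCZ1B, chromosome 7, 5898359 to 6826627, 0.928 Mb). ZDHHC4, a palmitoyltransferase, had 231 parental and 248 ROSA26 reads (folds 11.75 and 12.88), and ZNF12 had 166 and 191 (9.95 and 10.48). CCZ1 had 172 and 186 reads and CCZ1B 184 and 198. CCZ1 and CCZ1B are near-identical copies that code for an activator of RAB7, so the placement of reads between them is uncertain. The kept peaks that bound this run were a peak at no gene end (145 parental, 194 ROSA26 and 37 knockout reads) and that of UMAD1 (211, 217 and 52). Between them lay 9 control-shared peaks of any kind, of which 8 were missing. The others missing were the peaks of USP42 (80 and 81 reads), RAC1 (119 and 157 reads), a peak shared by PMS2 and AIMP2 (80 and 90 reads), and a peak near no gene end (121 and 117 reads). The kept peak was that of ZNF316, with 103 parental, 138 ROSA26 and 46 knockout reads. A weaker control peak was thus kept between ZDHHC4 and ZNF12, both missing. Whether the clone differs in DNA copies here was not tested.

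**Figure D5:**
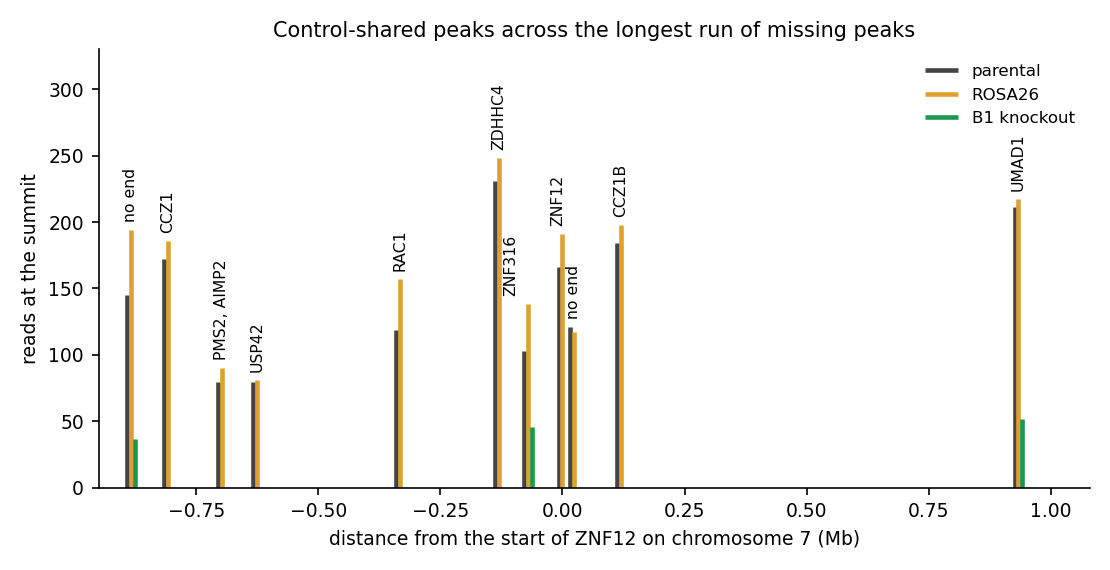
Reads at the summit (y axis) of control-shared peaks along chromosome 7 (x axis, Mb from the start of ZNF12) in the parental (dark), ROSA26 (orange) and B1 knockout (green) libraries; each bar is 1 peak and "no end" marks a peak near no gene end. Of the 9 peaks between the kept outermost ones, ZNF316 alone has a knockout bar.

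Elsewhere the runs were of 2 peaks each, 12 in number. On chromosome 19 they held the zinc finger neighbours ZNF284 and ZNF234, ZNF227 and ZNF233, and ZNF229 and ZNF180, and on chromosome 15 GABPB1 and SPPL2A. By chromosome, 10 of 46 single-gene peaks at or above the median fold were missing on chromosome 7 (21.7%, 10.9 to 36.4) and 17 of 111 on chromosome 19 (15.3%, 9.18 to 23.4). The shares on chromosomes 21 (2 of 8), 13 (2 of 9) and 6 (5 of 23) were as high as that of chromosome 7 or higher, on fewer peaks. On chromosome 11 there was 1 of 50 missing (2.00%, 0.0506 to 10.6), against 10.9% over all. Over peaks of every strength, chromosome 11 had 34 missing, against 43.9 from the class shares. Chromosome 2 had 53, against 45.1, chromosome 7 had 41, against 33.8, and chromosome 6 had 47, against 41.8.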

How the data were processed

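GABPA ChIP-seq was measured in A-375 cells, with 1 ChIP library per condition. Of the 6 samples, the 3 inputs were not analysed here. The submitters' processing notes name Bowtie2, SAMtools and MACS2 with hg38. For versions and thresholds, nothing is given in the sources used here. The authors deposited 1 peak list per ChIP library, with fold enrichment (a ratio), −log10 p, −log10 q, a score and the summit offset per peak. Folds and −log10 values were used within a list only, except −log10 p scaled to the knockout background. The lists hold no read totals, so summit reads were solved with the MACS2 formula from each peak's fold and −log10 p, and all peaks gave whole reads within 0.05. Overlap was at least 1 bp. Genes are 19974 protein-coding spans of RefSeq GRCh38.p14. Each peak took the promoter window of its gene nearest to the summit. Intervals are exact 95% Clopper-Pearson intervals (SciPy 1.17.1, Python 3.11.15, pandas 2.3.3), and they cover counting error only. The steps were tested on simulated data.

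The members and lists were chosen with earlier results of these data known. Named are the 20 members with the highest parental fold, the 2 strongest of each list with at least 4 members, the edges of the 1 kb limit, the extremes by motif, fold and distance, and genes that complete a small count or a run, chosen after their values were seen.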

Additional observations from a re-analysis of the deposited data

How the results depend on the processing

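Of 69 values recomputed, 46 kept within their interval or, for the number missing, within 1.5 times. That number was 759 with an overlap of at least 50% and 745 with a 500 bp limit. With each list at the length of the knockout list, 118 peaks were missing, or 12.3%. In 4 classes drawn anew from those 959 peaks, 29.2% of the weakest and 1.25% of the strongest were missing. The median ROSA26 percentile of the missing peaks was then 21.9, and 70.3% lay within 200 bp. CCGGAAG was in 50.5% of their windows, and at least 2 copies of CGGAAG in 36.8%. With −log10 q of at least 10, 46.5% were missing and the percentile was 40.9. With summits within 500 bp, 80.3% of missing peaks lay within 200 bp. For missing and kept windows, CCGGAAGT gave 19.6% and 39.7%, CGGAAG 65.0% and 81.7%, the last 100 bases before the start and all after it 35.6% and 57.3%, and pairs of CCGGAAG 6.75% and 20.6%. With the summit inside the window, added after seeing the data, the motif was in 55.6% and 70.1%, and at least 2 cores in 28.6% and 49.1%. In each of these pairs the kept share was the larger. No paired analysis was possible because each condition had 1 ChIP library, and none could be left out. The most frequent knockout background was 64.0% of the parental one, and the part of depth in the missing calls was not tested beyond the scaling.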
